A study of Mus musculus with 14 samples.

Results

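Matrix metalloproteinases and their tissue inhibitors, the Timp proteins, were followed in RNA of mouse fibroblasts deficient in Ptdsr, once described as a receptor for phosphatidylserine and now named Jmjd6. The rule took every probe annotated to Mmp2, Mmp3, Mmp9, Mmp10, Mmp11, Mmp13, Mmp14, Timp1, Timp2 or Timp3 that had a value on at least 10 of 14 arrays. It found 15 probes of 9 genes, 8 of them for 6 metalloproteinase genes and 7 for 3 Timp genes, among 20355 probes and 9930 named genes in all. Mmp10 had no probe under its symbol. A further Timp1 probe had values on 8 arrays and was left out. At the limit of 10 arrays stood 1 probe of Mmp9 and 1 of Mmp14. The genes were chosen by their knockout over wild type ratios on these same arrays, above all the low ratios of Mmp13 and Mmp3. Those ratios are therefore given as a description, and no p is printed for a member's mean ratio.

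Each of the 14 two-colour cDNA arrays carried RNA labelled Ptdsr-/- fibroblast in one dye and RNA labelled Wt fibroblast in the other. The knockout was in Cy5 on replicates 1, 3, 4, 7, 8, 9 and 13 and in Cy3 on replicates 2, 5, 6, 10, 11, 12 and 14. Arrays cannot be assigned to the 2 cultures that the design mentions, and the sources used here give no strain, age or tissue of origin. The labels spell the wild-type channel wt on replicates 1 and 7 and Wt on the other 12, and give no reason for it. The spread between arrays may thus be technical in part. The wild-type RNA served as 1 control whose own spread was not measured, and the labelling protocol speaks of a reference pool from control animals where the channel labels name fibroblasts.

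Metalloproteinases are zinc-dependent proteases made as inactive proenzymes, and together they cleave most components of the extracellular matrix. Timp proteins bind the active enzymes and block them. In fibroblasts the genes for collagenase and stromelysin are silent or weak at rest and are switched on by growth factors and inflammatory cytokines, largely through AP-1, the dimer of Fos and Jun proteins, at a site close to the transcription start. Mmp13 and Mmp3 belong to a cluster of metalloproteinase genes on one chromosome.

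The promoters of Mmp13 and Mmp3 are shown because these genes had the lowest mean ratios among the members. The 250 bases before the annotated start were read from RefSeq on GRCm38.p6, 5′ to 3′ on the plus strand, at chr9:7272264-7272513 for Mmp13 and chr9:7445572-7445821 for Mmp3. Capitals mark matches to TGANTCA, with any base at N, a pattern that takes in TGACTCA and TGAGTCA, the letters AP-1 is known to bind.
Mmp13: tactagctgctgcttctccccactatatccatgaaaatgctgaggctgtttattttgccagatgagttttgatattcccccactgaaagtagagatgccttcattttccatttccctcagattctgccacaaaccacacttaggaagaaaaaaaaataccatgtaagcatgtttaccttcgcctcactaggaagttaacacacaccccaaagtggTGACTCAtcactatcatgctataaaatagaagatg
Mmp3: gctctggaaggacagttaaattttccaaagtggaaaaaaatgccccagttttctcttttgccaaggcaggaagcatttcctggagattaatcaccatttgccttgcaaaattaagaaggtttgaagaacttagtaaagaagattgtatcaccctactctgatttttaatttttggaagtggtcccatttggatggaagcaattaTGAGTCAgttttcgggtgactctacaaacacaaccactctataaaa
The Mmp13 match reads TGACTCA and begins 35 bases before the start, and the Mmp3 match reads TGAGTCA and begins 46 bases before it. Both promoters also hold TATAAA on the plus strand, 16 and 7 bases before the start. TGANTCA reads the same on either strand and occurred in 6.75% of 32851 promoter windows of this length. TATAAA, searched on each gene's own strand, occurred in 7.59%, and both occurred together in 0.791%. The table held windows for 7 of the 9 member genes. TGANTCA and TATAAA had 0 matches in those of Mmp11, Mmp14, Timp1, Timp2 and Timp3. The window of Mmp10, which has no probe here, also held both, TGAGTCA at 63 and TATAAA at 29 bases before the start. AGGAAG, letters of Ets factor sites, was searched on both strands and occurred in 29.5% of windows, with 2 matches each for Mmp13 and Timp1 and 1 each for Mmp3, Timp3 and Mmp14. A match is a string of letters and no evidence of binding in these cells.

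Every value below is a log2 ratio, knockout to wild type, after each array's median was set to 0. A ratio carries no level, so expression of one gene cannot be set against another, and the fibroblast identity cannot be checked from marker levels. Fewer cells of one kind and less RNA per cell cannot be told apart in such ratios. The direction is likely rather than stated. Each array held a repeated extreme value that codes a zero denominator, and it was positive where the knockout was in Cy5 and negative where it was in Cy3. This sign pattern is what values already turned to knockout over wild type would show if the scanner ratio was Cy5 over Cy3. With the opposite scanner ratio every sign here would turn. If the dye-swapped arrays were in truth still unturned, a probe below 0 on every array would mark a dye effect. Between 13165 and 19615 probes per array had a usable ratio. The Jmjd6 probe with values on all arrays had a mean of -0.51 ± 1.14 (SD, n = 14), below 0 on 12 arrays and as high as 2.92 on another. A second Jmjd6 probe had a mean of 0.27 ± 1.10 (SD, n = 5), below 0 on 1 array. The probes thus differ in sign, and they do not check the direction of the ratios. The sources used here do not say whether either lies in the deleted part.

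Mmp13 encodes collagenase 3, which cleaves fibrillar collagen. Its ratio ranged from -2.78 on replicate 12 to -0.97 on replicate 13, with a median of -1.43. It was below 0 on 14 of 14 arrays. The mean was -1.64 ± 0.59 (SD, n = 14), a 3.12-fold lower ratio in the knockout. The mean was -1.63 ± 0.53 (SD, n = 7) over Cy5-knockout arrays and -1.65 ± 0.70 (SD, n = 7) over Cy3-knockout arrays. The ratio thus had the same size in both dye orientations of the deposited values.

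Mmp3 encodes stromelysin 1, which degrades proteoglycans, fibronectin and laminin and activates other metalloproteinase proenzymes. Its ratio ranged from -4.84 on replicate 10 to -0.24 on replicates 5 and 13, with a median of -1.06, and it too was below 0 on 14 of 14 arrays. The mean was -1.78 ± 1.53 (SD, n = 14), a 3.44-fold lower ratio. Its spread was larger than that of 87.0% of the 18503 probes tested, against 24.4% for Mmp13. By mean, 0 of the tested probes lay lower than Mmp3, and 1, which was Mmp3, lay lower than Mmp13. Only 26 of the 18503 probes (0.141%) were below 0 on every array that measured them, and these 2 were among them. This ranking describes the values by which the pair was chosen.

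**Figure D1:**
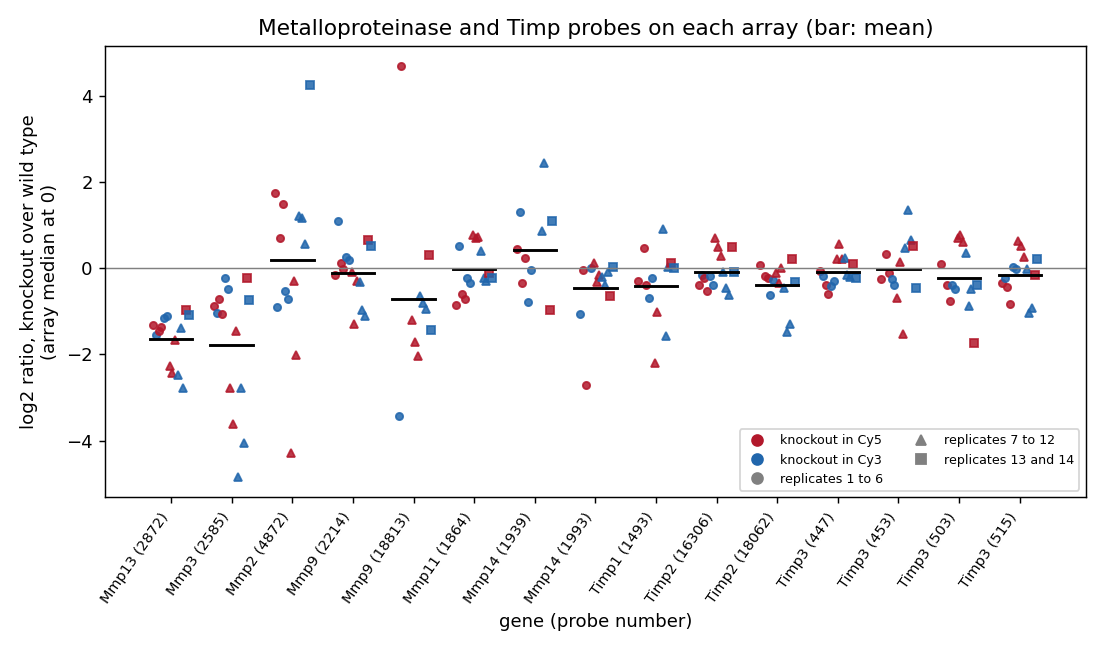
Log2 ratio of knockout over wild type for the 15 probes, 1 point per array, with a bar at each probe's mean; colour gives the dye of the knockout and shape the range of replicate numbers. Mmp13 lies between -2.78 and -0.97 and Mmp3 between -4.84 and -0.24, while the other 13 probes have values on both sides of 0.

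The Mmp3 ratios were ordered by range of replicate number. On replicates 7 to 12 the Mmp3 ratio was -2.78, -3.61, -1.46, -4.84, -2.78 and -4.05, in that order. On replicates 1 to 6 it lay between -1.07 and -0.24, and replicates 13 and 14 gave -0.24 and -0.74. Replicate 9, at -1.46, lay nearer to -1.07 than to -2.78, the next ratio of its own range. Every array from 7 to 12 was below every other array. This held for 1 of the 15 member probes and for 88 of all 18503 (0.476%), and the opposite order, every array from 7 to 12 above all others, held for 0.249% of all probes. The number ranges are not groups in the labels and were seen in the values, so the difference was not tested. Each of the ranges 1 to 6 and 7 to 12 holds 3 arrays of each dye orientation.

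The mean of Mmp3 was -3.25 ± 1.18 (SD, n = 6) on replicates 7 to 12, a 9.54-fold lower signal, and -0.74 ± 0.33 (SD, n = 6) on replicates 1 to 6, a 1.67-fold lower one. Mmp13 moved the same way over a narrower span, with -2.17 ± 0.53 (SD, n = 6) on replicates 7 to 12 and -1.32 ± 0.17 (SD, n = 6) on replicates 1 to 6. These are 4.5-fold and 2.5-fold lower signals. The ranges of Mmp13 overlapped, as replicate 11 stood at -1.40 and replicate 2 at -1.54. Replicates 13 and 14 gave -0.97 and -1.08.

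**Figure D2:**
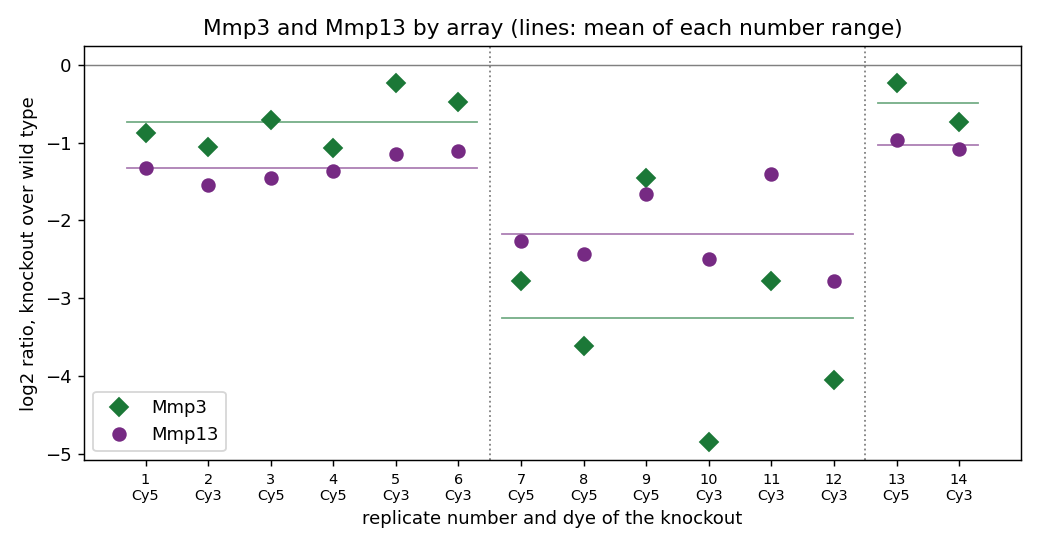
Log2 ratio of knockout over wild type for Mmp3 and Mmp13 on each array in order of replicate number, with the dye of the knockout below it; horizontal lines are means over replicates 1 to 6, 7 to 12 and 13 to 14. Mmp3 averages -3.25 on replicates 7 to 12 and -0.74 on replicates 1 to 6, and Mmp13 averages -2.17 and -1.32.

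Set side by side on each array, Mmp3 was above Mmp13 on all 6 arrays of replicates 1 to 6, by 0.58 ± 0.22 (SD, n = 6) log2 units, and on replicates 13 and 14 by 0.73 and 0.35. On replicates 7 to 12 it was below Mmp13 on 5 of 6 arrays, with a mean difference of -1.08 ± 0.86 (SD, n = 6). The exception was replicate 9, where Mmp3 stood 0.19 above Mmp13. Over all arrays the difference was -0.14 ± 1.02 (SD, n = 14), and this near-zero mean hid the opposite order in the ranges.

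Because the Mmp3 ratio differed between the number ranges, the relation was examined within each of the ranges 1 to 6 and 7 to 12. Within replicates 1 to 6 Pearson's r was 0.776 (exact two-sided permutation p = 0.0889) and Spearman's rho 0.657 (exact p = 0.175). Within replicates 7 to 12 r was 0.746 (exact p = 0.0944) and rho 0.771 (exact p = 0.103). With Benjamini-Hochberg adjustment over these 4 tests the exact permutation p was 0.137, 0.175, 0.137 and 0.137 in that order, so none passed with 6 arrays each. Without the 2 arrays farthest from the Mmp13 median, r was 0.685 and 0.565 over 4 arrays each. Normalization moved r in opposite ways in the ranges. With quantile normalization r was 0.594 (exact permutation p = 0.197) in replicates 1 to 6 and 0.914 (exact p = 0.0167) in replicates 7 to 12, and with arrays scaled to a common spread it was 0.430 (exact p = 0.372) and 0.860 (exact p = 0.0444). Without any centring it was 0.905 (exact p = 0.00833) and 0.708 (exact p = 0.15). These p were not adjusted. Uncentred values carry each array's offset in both genes alike, and this moves r by itself. The array medians of replicates 1 and 2 were 0.193 and -0.334, beside an Mmp13 SD of 0.17 over replicates 1 to 6. Nothing is therefore read from the r without centring.

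**Figure D3:**
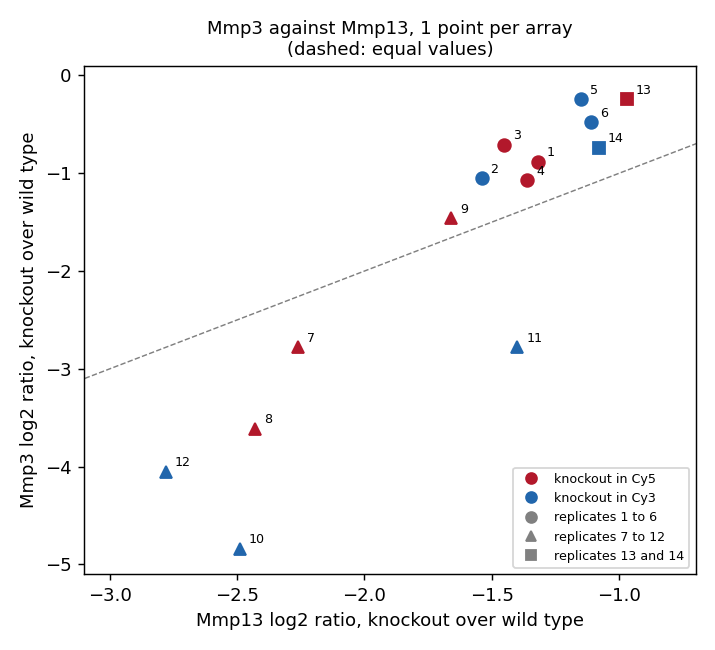
Mmp3 against Mmp13 log2 ratio, 1 point per array labelled with its replicate number, with the dashed line at equal values. Replicates 7 to 12 have the lowest Mmp3 ratios, and all of them but replicate 9 lie under the line.

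The likeness of whole profiles was described by Pearson's r over the 14 arrays among named probes with a value on every array. The arrays share the split between number ranges, so it is a description without a p. Of 4493 other probes, Mmp3 was the one most like Mmp13 (r = 0.915), and Mmp13 ranked 2 for Mmp3. After Mmp3, the probes most like Mmp13 were Dkk3, a secreted glycoprotein of the Dickkopf family (0.857), Samhd1, a dNTP hydrolase (0.856), Il1rn, the antagonist of interleukin 1 (0.847), and the collagen gene Col5a3 (0.842). For Mmp3 they were Dkk3 (0.928), Mmp13, the lactate transporter gene Slc16a3 (0.894), S100a4, a calcium-binding protein of fibroblasts (0.889), and Cd44, the receptor for hyaluronan (0.879). Their mean ratios on replicates 1 to 6 were near or above 0, at -0.05 for Dkk3, 0.81 for S100a4 and 0.87 for Cd44. On replicates 7 to 12 they were -1.49, -1.64 and -0.88. In the same order of ranges Samhd1 averaged 0.04 and -0.79, the Il1rn probe -0.02 and -1.77, Col5a3 0.70 and -1.40, and Slc16a3 0.81 and -0.40. All shared the drop between ranges, which follows from their choice by r over all arrays, so nothing is read from it. Each had values on both sides of 0, whereas Mmp13 and Mmp3 were themselves chosen for their low ratios. Within replicates 1 to 6, r with Mmp3 was 0.22 for Dkk3, -0.11 for S100a4 and 0.40 for Cd44. Within replicates 7 to 12 these were 0.77, 0.50 and 0.41. Mmp13 with Mmp3 gave 0.78 and 0.75 in those ranges.

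The gelatinases degrade denatured collagen and basement membrane collagen. Mmp2, the gelatinase that fibroblasts make constitutively, ranged from -4.30 on replicate 7 to 4.24 on replicate 14, with a median of 0.57. It was below 0 on 6 arrays and above 0 on 7, and the mean of 0.18 ± 2.05 (SD, n = 13) is small beside that spread. Of its 13 values 3 fell on a ratio of whole numbers up to 10, taken here as a likely mark of dim spots. Such values made up 13.4% to 31.4% of an array, so this count does not set Mmp2 apart. Its spread exceeded that of 98.0% of tested probes, so this probe carries little information on the direction.

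Mmp9, the gelatinase induced in inflammation, had 2 probes. Probe 2214 ranged from -1.30 to 1.09 with a mean of -0.11 ± 0.67 (SD, n = 14). It was below 0 on all of replicates 7 to 12 (mean -0.68 ± 0.50, SD, n = 6) and averaged 0.24 ± 0.44 (SD, n = 6) on replicates 1 to 6, with the ranges overlapping at their ends. This is the same order of number ranges as for Mmp3, which 7 of the 15 member probes had, while 8 had the opposite order. The profile of probe 2214 ranked 89 among 4493 in likeness to Mmp3 (r = 0.726) and 82 in likeness to Mmp13 (0.651). Probe 18813 had 10 values from -3.42 on replicate 2 to 4.68 on replicate 3, a mean of -0.72 ± 2.14 (SD, n = 10), and -1.22 ± 0.55 (SD, n = 6) on replicates 7 to 12. That mean was -1.32 without replicate 3, -0.42 without replicate 2 and -2.16 with its 1 coded extreme kept. The probes had the same sign on 8 of 10 shared arrays.

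Mmp11 encodes stromelysin 3, which is made by stromal cells around tumours and in remodelling tissue and is cut to its active form inside the cell. Its ratio ranged from -0.85 to 0.77, with a median of -0.23 and a mean of -0.03 ± 0.55 (SD, n = 14). The profile did not follow Mmp3 (r = -0.448) or Mmp13 (-0.505). Mmp11 averaged 0.35 ± 0.49 (SD, n = 6) on replicates 7 to 12 and -0.37 ± 0.49 (SD, n = 6) on replicates 1 to 6, the opposite order.

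Mmp14 encodes a membrane-anchored metalloproteinase that activates proMMP2 and proMMP13. Its probes disagreed. Probe 1939 had a mean of 0.43 ± 1.04 (SD, n = 10) with values from -0.96 to 2.45, and probe 1993 had a mean of -0.46 ± 0.78 (SD, n = 12) with values from -2.72 to 0.11. They had the same sign on 3 of 8 shared arrays and differed there by a median of 1.07 log2 units. Most of the lower mean of probe 1993 came from replicates 2 and 4, at -1.06 and -2.72, as its median was -0.18. No direction can be given for Mmp14.

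The inhibitor probes had a smaller median spread than the protease probes, a difference that was not tested. Over the 7 Timp probes the SD between arrays ran from 0.31 to 0.86, with a median of 0.52, against a median of 0.91 over the 8 metalloproteinase probes and 0.91 over all tested probes. All 7 Timp means were below 0, from -0.41 to -0.02, none of them called by limma, and all 7 had values on both sides of 0. These 7 probes stand for only 3 genes. The Timp1 probe left out, with values on 8 arrays, had a mean above 0, at 0.52 ± 0.93 (SD, n = 8).

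Timp2 inhibits metalloproteinases and also takes part in the activation of proMMP2 by Mmp14 at the cell surface. Probe 16306 ranged from -0.63 to 0.70 with a median of -0.18 and a mean of -0.08 ± 0.42 (SD, n = 14). Probe 18062 ranged from -1.48 on replicate 11 to 0.22 on replicate 13, with a median of -0.27 and a mean of -0.39 ± 0.50 (SD, n = 13). The probes had the same sign on 10 of 13 shared arrays. Probe 18062 averaged -0.08 ± 0.19 (SD, n = 7) over Cy5-knockout arrays and -0.74 ± 0.52 (SD, n = 6) over Cy3-knockout arrays. Its lower mean therefore lay on the arrays with the knockout in Cy3, where replicates 11 and 12 stood at -1.48 and -1.29.

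Timp3, the inhibitor that binds to the matrix itself, had 4 probes. Their means were -0.09 ± 0.31 (SD, n = 14) for probe 447, -0.02 ± 0.72 (SD, n = 13) for probe 453, -0.23 ± 0.72 (SD, n = 13) for probe 503 and -0.17 ± 0.52 (SD, n = 14) for probe 515. Probes 447, 503 and 515 shared their sign on 9 to 11 arrays of 13 or 14. Probe 453 went its own way and shared the sign of probe 515 on 4 of 13 arrays. Timp1, an inhibitor induced along with the proteases by growth factors and cytokines, had a mean of -0.41 ± 0.86 (SD, n = 12), with values from -2.21 to 0.90 and a median of -0.26. The Timp1 probe left out had 4 values above 0 and 4 below. With both probes averaged on each array the Timp1 mean was -0.1.

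A common profile joined 5 probes, namely Timp3 probes 447, 503 and 515, Timp2 probe 16306 and Mmp11. All 5 were above 0 on replicates 7, 8 and 9, from 0.21 to 0.77, where the knockout was in Cy5. All 5 were below 0 on replicates 11 and 12, from -1.05 to -0.16, where it was in Cy3. Replicate 10, also with the knockout in Cy3, had 3 above 0 and 2 below. On replicates 3, 4 and 6 all 5 were below 0 in either dye. The other probes of Timp3 and Timp2 did not share the profile. Timp3 probe 453 stood at -0.69 and -1.52 on replicates 7 and 9 and at 1.35 and 0.66 on replicates 11 and 12. Timp2 probe 18062 was below 0 on replicates 7 and 8, at -0.11 and -0.35, as well as on replicates 11 and 12. The profile was noticed in the values, and 9.48% of all tested probes were likewise above 0 on replicates 7, 8 and 9 and below 0 on 11 and 12. The dye orientation moves with the sign within replicates 7 to 12, and its part was not tested there, since 3 arrays against 3 cannot reach an exact p below 0.10.

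**Figure D4:**
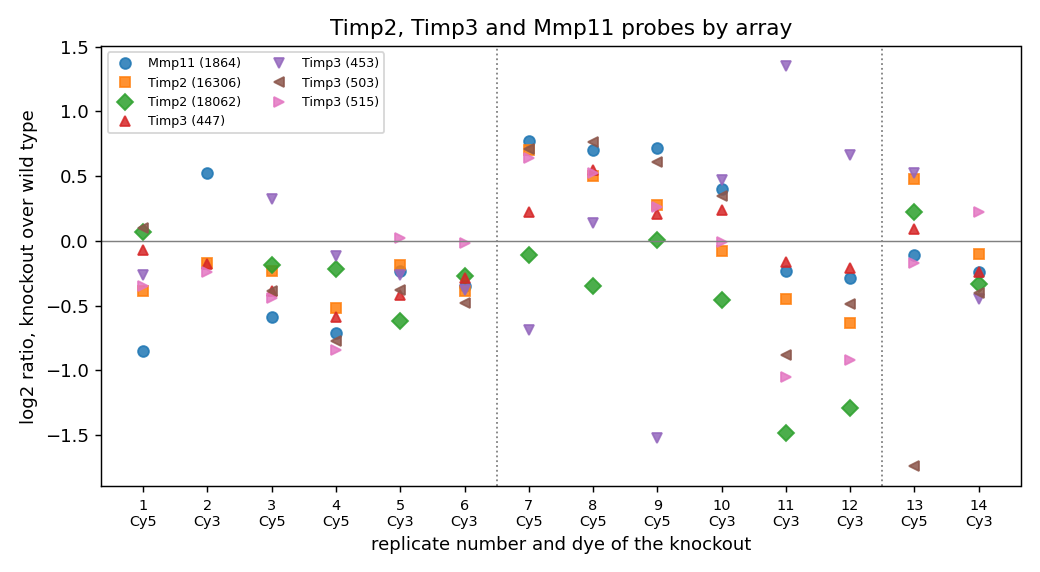
Log2 ratio of knockout over wild type for the Timp2, Timp3 and Mmp11 probes on each array in order of replicate number, with the dye of the knockout below it. On replicates 7, 8 and 9 the 3 Timp3 probes 447, 503 and 515, Timp2 probe 16306 and Mmp11 are above 0, and on replicates 11 and 12 they are below 0.

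Limma was fitted across all 18503 probes that had enough values. A probe was called at a Benjamini-Hochberg adjusted p below 0.05. Of the 15 member probes, 1 was called lower, Mmp13, and 0 higher, against 0.0324% of all probes called lower. At an unadjusted p below 0.05, 3 were lower (Mmp13, Mmp3 and Timp2 probe 18062) and 0 higher, where 5.05% of all probes passed, 2.76% lower and 2.3% higher. The rule used this contrast, so nothing is read from these shares. The count of called members was 0 with either dye orientation alone and with robust and trended eBayes, where the Mmp13 mean was -1.63, -1.65 and -1.64. It was also 0 without replicates 7 to 12, where that mean was -1.25, and with the Cy3 arrays turned, where it was 0.01. Over the members the median of the means was -0.17, with 13 below 0 and 2 above, and over all tested probes it was 0.01, with 9067 below and 9436 above.

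The dye term, the distance of either orientation's ratio from the midpoint of both, positive where Cy5-knockout arrays are higher, was not used to choose the members. By limma it was called for 0 of 15 probes at an adjusted p below 0.05, against 0.0054% of all probes. The terms ran from -0.58 to 0.73 log2 units, with adjusted p from 0.598 to 0.992. For Mmp13 the term was 0.01 ± 0.17 (SE; adjusted p = 0.992) and for Mmp3 it was 0.24 ± 0.38 (SE; adjusted p = 0.906). At an unadjusted p below 0.05 there was 1, Timp2 probe 18062 at 0.33 ± 0.14 (SE), where 7.66% of all probes had one, 4.88% below 0 and 2.78% above. The intervals are wide for Mmp2 and for Mmp9 probe 18813, whose SE were 0.51 and 0.58.

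Signal strength is not in the deposited ratios. Ratios of small whole numbers were taken as a likely mark of dim spots, which cannot be checked without intensities. Mmp13, Mmp3, Mmp11 and both Timp2 probes had 0 such values. The other 10 member probes had between 1 and 4, the highest being Mmp14 probe 1993. Such values made up 13.4% to 31.4% of an array.

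Of the 100 further genes of the pathway that were listed, 55 were measured, and limma called 0 of them. The unadjusted p was below 0.05 for 4 lower genes (Il1b, Il6st, Dcn and Adam17) and 2 higher ones (Etv5 and Col4a1) (background 2.76% lower and 2.3% higher per probe). A gene passed if any of its probes did, so gene counts exceed a per-probe share more easily and are not read as an excess. Il6st and Etv5 had 2 probes each and Col4a1 had 4. The Il6st mean over its probes was -0.14 ± 0.88 (SD, n = 14), above 0 on 8 arrays. Among 5 measured of the other metalloproteinases and direct inhibitors, 0 were called and 0 passed the unadjusted p. The farthest from 0 were Mmp17 at 0.28 ± 0.74 (SD, n = 14), Mmp24 at 0.27 ± 1.19 (SD, n = 11), both membrane-type enzymes, and the neutrophil collagenase Mmp8 at -0.23 ± 0.82 (SD, n = 14). Among the 6 measured activators of proenzymes 0 were called. Klk1, a kallikrein, stood at -0.35 ± 1.17 (SD, n = 14), Bsg, the inducer of metalloproteinases also called EMMPRIN, at -0.33 ± 0.60 (SD, n = 14), and the cysteine protease Ctsb at -0.28 ± 0.72 (SD, n = 13).

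Among 18 measured genes of transcription and signalling upstream of metalloproteinases, 0 were called, while 2 lower genes and 1 higher gene had an unadjusted p below 0.05. Il1b, the cytokine that induces Mmp3 and Mmp13 in fibroblasts, had a mean of -0.64 ± 0.99 (SD, n = 13, limma adjusted p = 0.895). It averaged -1.29 on replicates 7 to 12 and -0.31 on replicates 1 to 6. Il1rn stood at -0.32 ± 1.10 (SD, n = 14), with -1.12 and 0.18 in those ranges, and Tnf at -0.44 ± 1.14 (SD, n = 11), with -0.11 and -0.77. Thus Il1b and Il1rn had the same order of ranges as Mmp3, and Tnf had the opposite order. Such an order is common. Of the 15 member probes, 7 were lower on average on replicates 7 to 12 than on 1 to 6, and 8 were higher. Nothing is therefore read from the order in these genes. The median of the 18 gene means was -0.03.

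Among 19 measured substrates and receptors 0 were called, while 1 lower gene and 1 higher gene had an unadjusted p below 0.05. The collagen genes Col1a1 and Col3a1 stood at 0.73 ± 2.34 (SD, n = 13) and -0.31 ± 0.63 (SD, n = 11). The proteoglycan gene Dcn stood at -0.65 ± 0.72 (SD, n = 14), with -1.32 on replicates 1 to 6 and 0.04 on replicates 7 to 12, the reverse of Mmp3. Of 7 measured Adam and Adamts proteases 0 were called. Adam8 stood at 0.68 ± 1.44 (SD, n = 10), Adam17, the shedding enzyme of tumour necrosis factor, at -0.62 ± 0.84 (SD, n = 13), and Adamts1 at -0.37 ± 0.88 (SD, n = 11).

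Position was examined after the values had been seen. In RefSeq 2 coding genes, Mmp12 and Mmp1b, lie between Mmp13 and Mmp3, and neither was measured. Of 22 other coding genes between them or within 10 places of either, 11 were measured, with means from -0.42 to 0.28. By limma 0 were called, and 1 passed an unadjusted p below 0.05, Yap1 at 0.24 ± 0.34 (SD, n = 14). Mmp8, the nearest measured metalloproteinase, was below 0 on 8 of 14 arrays. Mmp1a, Mmp10, Mmp27, Mmp20 and Mmp7, also in this window, were not measured. Some of the 11 measured genes varied widely between arrays, with an SD of 2.31 for Casp4 and 2.25 for Birc2. None of the 11 had a mean as low as Mmp13 or Mmp3, and most metalloproteinase genes of the cluster remain unexamined.

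Markers of other cells were followed because macrophages, chondrocytes and osteoblasts also make metalloproteinases. Of 10 measured macrophage markers of 16 listed, 7 had a mean below 0 and 3 above, with a median of -0.22 and list means of -0.21 on replicates 1 to 6, -0.44 on 7 to 12 and -0.32 on 13 and 14. Lyz2 (lysozyme) was the 1 called by limma, at -1.62 ± 0.96 (SD, n = 14, lowest adjusted p of its probes 0.0454), against 0.0324% of all probes called lower. Cd68 stood at -0.51 ± 0.55 (SD, n = 13) and Tyrobp at -0.65 ± 1.54 (SD, n = 14). The 3 above 0 were Cybb at 0.23 ± 0.98 (SD, n = 12), Aif1 at 0.08 ± 1.11 (SD, n = 13) and Mrc1 at 0.03 ± 0.92 (SD, n = 11). Of 12 measured fibroblast markers of 14 listed, 7 were below 0 and 5 above, with list means of 0.04, -0.20 and 0.15 in the same ranges. Thy1 and S100a4 followed the ranges, at -1.36 and -1.64 on replicates 7 to 12 against 0.18 and 0.81 on replicates 1 to 6. Dcn and Col1a1 did not, being higher on replicates 7 to 12. The 4 measured chondrocyte and osteoblast markers of 10 listed had list means of -0.16, -0.02 and 0.32. The 6 epithelial markers had list means of -0.22, 0.16 and -0.09, and the 3 measured endothelial markers of 5 listed had 0.42, 0.00 and 0.24. The part of these markers in the Mmp13 and Mmp3 ratios was not tested.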

How the data were processed

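The authors deposited log2 ratios of 2 channels for 20355 probes on 14 arrays, which is the unit used here. Per the labels' protocols, cDNA made from total RNA received its Cy3 or Cy5 dye by indirect labelling. Scanner, background correction and normalization: not given in the sources used here. Values beyond an absolute log2 of 12, a code for a zero denominator, were set to missing, and each array was centred on its median. Symbols came from the platform annotation. It gave 14030 probes 1 symbol, 5 several and 6320 none. Of those with 1 symbol, 13994 matched RefSeq by gene ID. Several probes of a pathway gene were averaged on each array for the gene's mean, and a gene counted as called if any of its probes was.

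Limma 3.58.1 (R 4.3.3; lmFit and eBayes) was run on probes having 10 or more values, 4 or more per dye orientation, with an intercept and a dye term (1 for Cy5, -1 for Cy3). P-values were adjusted over 18503 probes by Benjamini-Hochberg. The fit was tested on simulated data. Correlations used exact permutation (scipy 1.17.1). A small whole-number ratio used whole numbers up to 10 within 0.0011 log2 units of the array's 1:1 step. No depth exists for arrays, and their number limits the precision.

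The members, lists and tests were chosen with earlier results of these data known. Named were all member probes, the 3 genes farthest from 0 in each pathway list and any called, the 5 probes most like Mmp13 and Mmp3, and Jmjd6. Yap1, Il6st, Etv5, Col4a1, Lyz2, Cd68, Tyrobp, Cybb, Aif1, Mrc1 and Thy1 were named after their values were seen. Alternatives changed centring, scaling, filters, dye orientation, blocks and single arrays.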

Additional observations from a re-analysis of the deposited data

Results flagged for a closer look

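In 30 sets of 4 to 7 arrays of 1 dye orientation, 4 member values lay far from the rest of their set. The rule's nominal rate is about 1 set in 20 for normally spread values. The share over all tested probes was not computed, and several sets belong to the same gene. The count is therefore not read as an excess. Mmp14 probe 1993 stood at -2.72 on replicate 4, with the next array at -0.64. Mmp2 stood at 4.24 on replicate 14, with the next at 1.20. Mmp9 probe 18813 stood at -3.42 on replicate 2, with the next at -1.44. Timp3 probe 447 stood at 0.24 on replicate 10, with the next at -0.16. None of them belongs to Mmp13 or Mmp3.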

How the results depend on the processing

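Leaving out each array in turn moved the Mmp13 mean between -1.69 and -1.56 and the Mmp3 mean between -1.90 and -1.55, with 0 dye terms and 0 pathway genes called. The count of called member probes, which was 1 each time, rests on the contrast that chose the members and shows no stability. That count was 0 with the Cy3 arrays turned, with either dye orientation alone, with robust and trended eBayes and, chosen after seeing the data, without replicates 7 to 12. It was 2, with Mmp3, with number ranges as a fixed block, a split seen in the Mmp3 values themselves, and 1, without Mmp3, with combined range and orientation as random blocks. Turning the Cy3 arrays exchanges the mean and the dye term. It gave means of 0.01 for Mmp13 and 0.24 for Mmp3, and 1 called dye term, Mmp13. Pathway genes called were 0 in every alternative run. Pearson's r of Mmp3 with Mmp13 in replicates 1 to 6 was 0.905 without centring (exact permutation p = 0.00833), 0.642 centred on the 1:1 step, 0.430 with scaled arrays, 0.594 with quantile normalization and 0.769 with replicates 13 and 14 added after seeing the data (exact p = 0.0311). In replicates 7 to 12 these were 0.708, 0.828, 0.860 (exact p = 0.0444) and 0.914 (exact p = 0.0167). Turning the Cy3 arrays gave 0.964 and 0.991, which follows from both genes being below 0 on every array and says nothing of the relation. Without centring, the offset that each array gives to both genes enters r, so nothing is read from that p either. Without replicates 7 to 12 the dye term turned to 0.24 for Timp3 probe 453, -0.22 for Timp3 probe 515, -0.25 for Mmp11 and 0.39 for Mmp2. A change of sign was counted only where a term exceeded 1 SE. The cause of the other changes was not tested. For r, leaving out each array in turn within a number range was not run, and neither was 1 dye orientation within a range. The r without the 2 arrays farthest from the Mmp13 median, given above, rests on 4 arrays in each range.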
